A study of Homo sapiens with 4 samples.

Results

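The genes described here are the 10 rows of the deposited count table that hold the vascular endothelial growth factor (VEGF) ligands VEGFA, VEGFB, VEGFC and PGF, the receptor tyrosine kinases FLT1, KDR and FLT4, the neuropilins NRP1 and NRP2, and CDH5, the endothelial cadherin gene. The table has 25690 rows, and all 10 genes were among the 15643 with enough counts to test. The list was chosen by gene family, with earlier results of the same comparison known, so the values of its members are given as a description and without p-values. The RNA came from H9, an established human embryonic stem cell line, at day 7, from cells that the series calls non-neural ectoderm, the ectoderm that gives rise to epidermis, placodes and neural crest. There were 2 wild-type (WT) libraries and 2 with the genotype label TFAP2A knockout, whose sample titles name TFAP2C instead. Both groups share the cell line and the day, and the labels used here name no clone, guide, medium or agent for either. Nothing says that the libraries of a group came from separate cultures, so the spread between them may be technical.

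VEGF ligands are secreted dimers that act on a small set of receptor tyrosine kinases. FLT1 binds VEGFA, VEGFB and PGF tightly and is a weak kinase that often serves as a decoy, KDR carries most of the mitogenic signal of VEGFA in endothelium, and FLT4 is the receptor of VEGFC in lymphatic vessels. Neuropilins are coreceptors shared with class 3 semaphorins and are also found in neurons and mesenchyme, and CDH5 encodes the cadherin of endothelial junctions, where it forms complexes with KDR. Outside vessels, PGF and FLT1 are known as products of placental trophoblast.

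TFAP2A, the gene in the genotype label, was at 171 and 198 CPM (counts scaled to a common library size) in WT and at 133 and 121 CPM in the libraries labelled knockout, so its transcript was still present. Counts per gene do not show whether an intact protein is made, and all directions given are those of the libraries so labelled. The libraries held 17838204 to 21797850 counts, so that a gene with no count could still lie at up to 3 counts, or 0.137 to 0.17 CPM. Surface ectoderm markers were set beside the labelled cell type, and all 9 were well above 1 CPM in each library. Their summed levels were 3183 and 3458 CPM in WT against 2447 and 2365 CPM in the other genotype. Amnion and trophoblast markers summed to 1474 and 1566 CPM in WT, so the presence of the 9 does not settle the cell type. In bulk RNA, fewer cells of a type and less RNA per cell cannot be told apart.

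Upstream sequences of 6 of the 10 genes were matched in the RefSeq table (build GRCh38.p14). Those of NRP2, KDR, VEGFC and FLT1 are shown because these genes changed most among the 6. CDH5, which changed most of the 10, had no matched sequence, nor did VEGFA, FLT4 and NRP1. Each run is the 250 bases before the transcription start, 5′ to 3′ on the gene's own strand, and capitals mark matches to the AP-2 core GCCNNNGGC, the palindrome that AP-2 factors such as TFAP2A bind. The windows are chr2:205682251-205682500 on the plus strand for NRP2, chr4:55125596-55125845 on the minus strand for KDR, chr4:176792923-176793172 on the minus strand for VEGFC and chr13:28495129-28495378 on the minus strand for FLT1.
NRP2: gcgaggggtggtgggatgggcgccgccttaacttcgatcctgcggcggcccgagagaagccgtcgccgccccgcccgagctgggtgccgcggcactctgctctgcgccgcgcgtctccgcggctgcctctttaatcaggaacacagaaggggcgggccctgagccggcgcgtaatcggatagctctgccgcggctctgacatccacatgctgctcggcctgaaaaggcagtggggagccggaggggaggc
KDR: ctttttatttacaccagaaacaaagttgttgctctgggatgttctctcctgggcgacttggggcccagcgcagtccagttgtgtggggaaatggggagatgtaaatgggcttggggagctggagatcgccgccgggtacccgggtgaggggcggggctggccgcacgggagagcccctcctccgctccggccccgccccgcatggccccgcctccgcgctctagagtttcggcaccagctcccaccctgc
VEGFC: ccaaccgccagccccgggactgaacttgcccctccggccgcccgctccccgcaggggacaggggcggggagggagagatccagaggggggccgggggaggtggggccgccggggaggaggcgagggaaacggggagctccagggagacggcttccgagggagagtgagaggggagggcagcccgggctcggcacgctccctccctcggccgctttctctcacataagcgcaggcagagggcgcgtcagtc
FLT1: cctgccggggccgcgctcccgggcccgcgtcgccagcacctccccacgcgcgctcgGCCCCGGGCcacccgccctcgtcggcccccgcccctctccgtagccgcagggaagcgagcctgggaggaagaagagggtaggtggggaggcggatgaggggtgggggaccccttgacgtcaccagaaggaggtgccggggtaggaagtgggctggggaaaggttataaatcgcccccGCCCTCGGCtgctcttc
FLT1 held 2 AP-2 cores, starting 194 and 17 bases before its start site, and the windows of NRP2, KDR and VEGFC held 0. VEGFB, which has a window too, held 1, at 122 bases, and both windows of PGF held 0. The core was present in 19.8% of all 35093 upstream windows of this length and in 26.2% of the windows of genes tested here. The hypoxia response core, searched on both strands as ACGTG or GCGTG, occurred once each in FLT1, 206 bases before the start site, in VEGFC, at 59 bases, in VEGFB, at 61 bases, and in 1 of the 2 windows of PGF, at 162 bases, and not in NRP2 or KDR. It was present in 43.2% of all windows and in 53.7% of those of genes tested here. The 2 windows on chromosome 4 differed in base composition, with 65.2% G and C in KDR and 74.0% in VEGFC. A match describes the letters of these windows only.

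Of the receptors, FLT1 and FLT4 were higher in the libraries labelled knockout and KDR was lower, and both neuropilins and CDH5 were lower. Of the ligands, VEGFC and PGF were higher. VEGFC and FLT1 were about 5-fold higher in the libraries labelled knockout, whereas KDR, NRP2 and CDH5 were 7.25-fold, 12.2-fold and 26.4-fold lower. VEGFA and VEGFB differed by less than 0.3 on the log2 scale, in neither case past the threshold used below. In the fit over all genes (edgeR's quasi-likelihood test, Benjamini-Hochberg adjusted p below 0.05), 4 of the 10 were called higher and 4 lower, against 21.9% and 22.3% of all genes tested and 44.2% in either direction. Those past the threshold with a change of at least 1 on the log2 scale numbered 5, against 11.3% of all genes. All 10 had libraries of the 2 genotypes that did not overlap in CPM, as did 73.1% of all genes. The median size of the change was 1.50 on the log2 scale over the 10 genes and 0.25 over all genes tested. Since the list was made with this comparison in view, nothing is read from these shares.

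**Figure D1:**
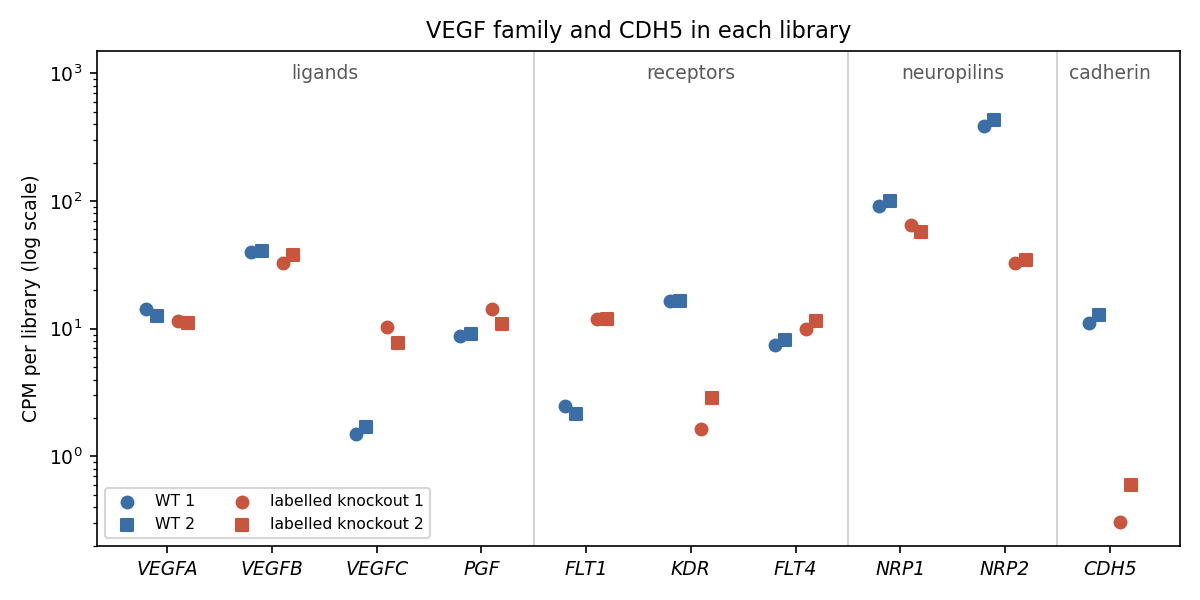
Level of each gene in each of the 4 libraries, in CPM on a log axis (blue, WT; red, labelled knockout; circles, replicate 1; squares, replicate 2). The red points of NRP2, KDR and CDH5 lie far below the blue ones, those of VEGFC and FLT1 far above, and those of VEGFA and VEGFB next to them.

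Among the ligands, VEGFC was at 1.51 and 1.70 CPM in WT and at 10.2 and 7.70 CPM in the libraries labelled knockout. Both of the latter were above both WT libraries, though they differed from each other more than the WT libraries did. VEGFC (chromosome 4, 177604685 to 177713899, minus strand, hg19), the ligand of lymphatic growth, had a log2 fold change of 2.47 (SE 0.22) and was 5.59-fold higher. Its deposited counts rose from 27 and 30 to 199.5 and 168.5. Only 2.68% of all genes tested had a larger change in either direction.

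PGF, placental growth factor, a ligand of FLT1 alone among the receptors, was at 8.84 and 9.07 CPM in WT and at 14.2 and 10.9 CPM in the libraries labelled knockout. Its higher library was replicate 1, and the groups did not overlap, but the distance between the libraries labelled knockout was larger than that from the lower of them to WT. The log2 fold change was 0.48 (SE 0.15), and it was 0.29 without knockout replicate 1, 0.46 without WT replicate 1 and 0.48 in DESeq2. PGF passed the threshold in the fit over all genes and in none of these 3 alternatives.

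VEGFA, the principal angiogenic ligand and a target of hypoxia signalling, was at 14.3 and 12.6 CPM in WT and at 11.5 and 11.1 CPM in the libraries labelled knockout. The log2 fold change of -0.25 (SE 0.12) did not pass, and it ran from -0.34 to -0.17 over 14 alternatives. VEGFB, which binds FLT1 but not KDR, was at 39.8 and 40.6 CPM in WT and at 32.7 and 38.0 CPM in the libraries labelled knockout. Its log2 fold change of -0.18 (SE 0.08) did not pass either, and became -0.30, past the threshold, without knockout replicate 2. Both ligands were thus slightly lower in each library labelled knockout, by an amount close to the spread between libraries. A further VEGF ligand outside the list, VEGFD (FIGF in the table), had 8 and 15.5 counts in WT but 0 and 1 in the libraries labelled knockout, too few to test.

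The receptors split. KDR (chromosome 4, 55944426 to 55991762, minus strand, hg19), the main signalling receptor, was at 16.5 and 16.3 CPM in WT and at 1.64 and 2.89 CPM in the libraries labelled knockout. The WT libraries were nearly equal and those labelled knockout were both far lower, at 32.5 and 63 deposited counts. The log2 fold change was -2.84 (SE 0.20), with a range of -3.32 to -2.50 over the alternatives.

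FLT1 (chromosome 13, 28874483 to 29069265, minus strand, hg19) moved the other way, from 2.46 and 2.15 CPM in WT to 11.9 CPM in both libraries labelled knockout. The log2 fold change was 2.36 (SE 0.17), a 5.16-fold higher level, and each library labelled knockout was above each WT library. FLT1 also gives rise to a short secreted form that traps ligand, and counts per gene do not separate it from the membrane receptor.

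FLT4, the lymphatic receptor, was at 7.44 and 8.17 CPM in WT and at 9.99 and 11.5 CPM in the libraries labelled knockout. The groups did not overlap, by a narrow margin. Its log2 fold change of 0.46 (SE 0.14) passed, but did not pass without WT replicate 1 (0.39), without knockout replicate 2 (0.36) or in DESeq2 (0.46).

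**Figure D2:**
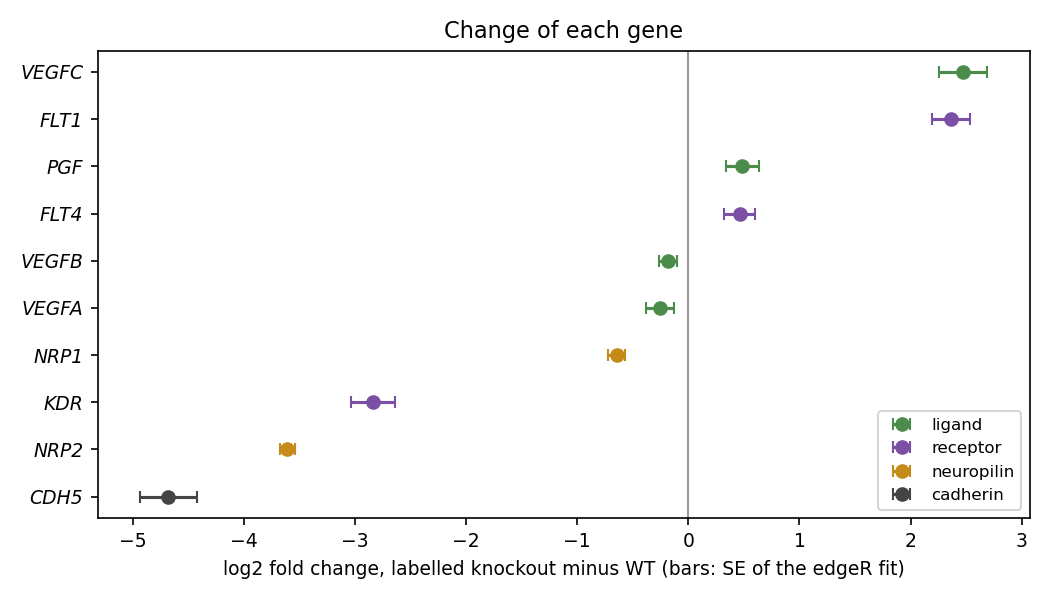
Log2 fold change of each gene, libraries labelled knockout minus WT, with its standard error from the fit over all genes, coloured by class. Ligands and receptors are found on both sides of 0, though no ligand below 0 passed the threshold. CDH5, at -4.68, is the lowest of the 10.

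Both neuropilins were lower, by very different amounts. NRP2 (chromosome 2, 206547224 to 206662857, plus strand, hg19), a coreceptor of VEGFC and of semaphorins, was the most abundant of the 10 genes in WT, at 387 and 432 CPM, and was at 32.8 and 34.3 CPM in the libraries labelled knockout. The log2 fold change was -3.61 with an SE of 0.07, the smallest SE of the list, and it ran from -3.69 to -3.53 over the alternatives. The deposited counts were 6918.5 and 7622 in WT against 640 and 748.5, so this fall rests on more reads than any other in the list.

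NRP1, the paralog that serves VEGFA and SEMA3A, was at 90.9 and 99.6 CPM in WT and at 65.0 and 56.7 CPM in the libraries labelled knockout. It fell by 0.65 on the log2 scale (SE 0.08), and no library labelled knockout reached the lower WT value. The 2 paralogs therefore exchanged ranks, since NRP2 had the higher CPM in both WT libraries and NRP1 in both libraries labelled knockout.

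CDH5 (chromosome 16, 66400525 to 66438689, plus strand, hg19) was at 11.0 and 12.8 CPM in WT and at 0.307 and 0.596 CPM in the libraries labelled knockout. These last values come from 6.5 and 13 deposited counts, above the limit of 3 counts but low enough that their ratio to each other is imprecise. The log2 fold change was -4.68 (SE 0.25), from -5.24 to -4.30 over the alternatives. Only 0.563% of all genes tested had a larger change.

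Levels of different genes were compared per kilobase of the longest coding transcript, as CPM per kb, mean ± SD of 2 libraries. In WT the order was NRP2 (61.5 ± 4.81), VEGFB (29.1 ± 0.431), NRP1 (16.2 ± 1.04), PGF (4.65 ± 0.0871), VEGFA (3.81 ± 0.334), CDH5 (2.89 ± 0.308), KDR (2.71 ± 0.0193), FLT4 (1.33 ± 0.0879), VEGFC (0.778 ± 0.0655) and FLT1 (0.325 ± 0.0305). CDH5 and KDR overlapped in that order and no other neighbours did. In the libraries labelled knockout, VEGFB came first (25.6 ± 2.73), followed by NRP1 (10.4 ± 0.998), PGF (6.51 ± 1.20), NRP2 (5.03 ± 0.16), VEGFC (4.35 ± 0.871), VEGFA (3.20 ± 0.0671), FLT4 (1.83 ± 0.178), FLT1 (1.68 ± 0.00341), KDR (0.374 ± 0.146) and CDH5 (0.109 ± 0.0494). There NRP2 and VEGFC overlapped. Thus the coreceptor with the highest level moved to the fourth place, and KDR and CDH5, in the middle in WT, came last.

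Which length is used matters for some of these ranks. With the union of all annotated exons, VEGFA, whose many transcripts spread over 14431 bases of exon against 3535 in the longest coding one, was at 0.934 CPM per kb in WT. It then lay below KDR (2.50) and CDH5 (1.96) in place of above them. The first 3 places in WT and the last 2 in the libraries labelled knockout were the same with either length.

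The make-up of each class shows the exchange without regard to its total. KDR made up 62.8% and 61.4% of the summed per-length level of the 3 receptors in the WT libraries, but 7.41% and 11.6% in those labelled knockout. FLT1 went from 7.99% and 6.91% to 45.9% and 40.8%, and FLT4 from 29.3% and 31.7% to 46.7% and 47.6%. The total of the 3 receptors was 4.37 ± 0.0381 CPM per kb in WT against 3.88 ± 0.327 in the libraries labelled knockout, 1.13-fold lower. The set thus went from mostly KDR to mostly FLT4 and FLT1. With the union of exons as length the mean share of FLT1 was 5.15% in WT against 38.0% in the libraries labelled knockout, that of FLT4 24.7% against 48.4% and that of KDR 70.1% against 13.6%. All of these shares moved in the same direction with either length. The receptor total with that length was 3.57 ± 0.0231 against 2.50 ± 0.254 CPM per kb, 1.42-fold lower, so the size of this difference depends on the length used.

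The neuropilin total, in contrast, was 5.05-fold lower, at 77.7 ± 5.85 CPM per kb in WT against 15.4 ± 0.839 in the libraries labelled knockout. NRP2 made up 79.0% and 79.3% of it in WT but 30.8% and 34.8% in the libraries labelled knockout.

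The ligand total was close to equal, at 38.4 ± 0.25 against 39.7 ± 0.584 CPM per kb. Within it VEGFB, the largest part, went from 75.5% and 76.4% to 60.3% and 68.7%, and VEGFC from 1.92% and 2.14% to 12.6% and 9.31%. VEGFA was at 10.6% and 9.28% in WT and at 8.27% and 7.86% in the libraries labelled knockout. The sums for neuropilins and ligands were added after the values were seen.

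**Figure D3:**
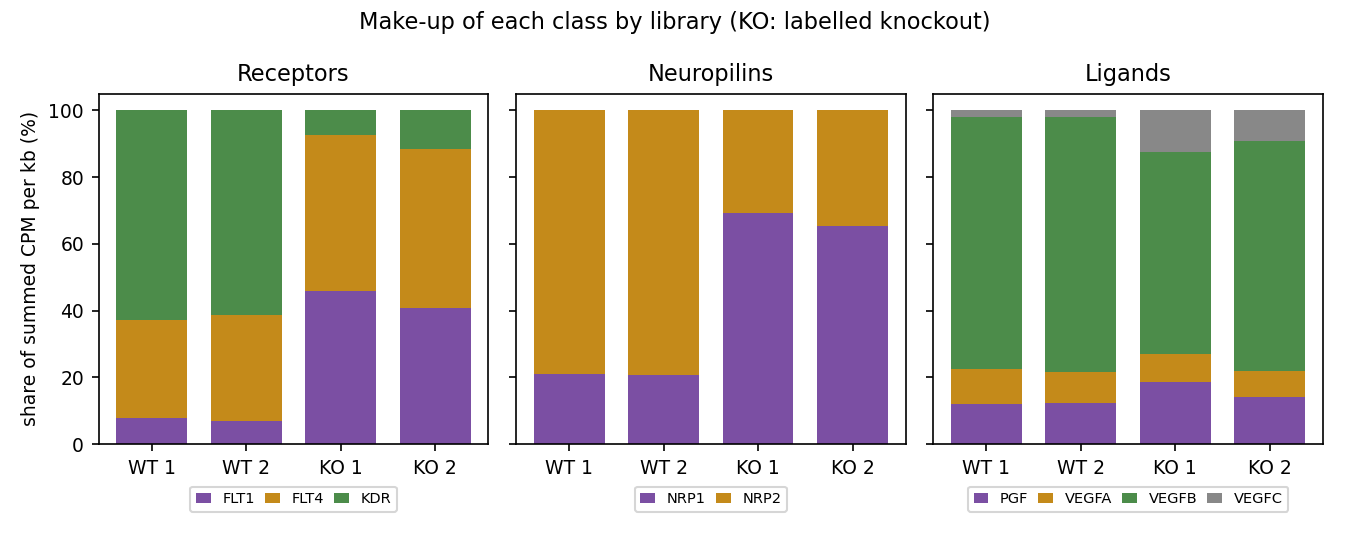
Share of each gene in the summed CPM per kb of its class, in percent, for each library (KO, labelled knockout). KDR fills over 60% of the receptor bars in WT and under 12% in the libraries labelled knockout, and NRP1 and NRP2 exchange places.

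The tested genes nearest to each member on its chromosome, at a median distance of 200 kb, mostly did not move with it. Of the 40 genes tested that lie nearest, 2 on each side, 11 were higher, 6 were lower and 23 did not pass. Over all genes tested, 21.9% were called higher, 22.3% lower and 44.2% in either direction, so nothing is read from these counts. The median size of change of the 40 was 0.22 on the log2 scale, close to the 0.25 of all genes. KDR lies in a cluster with KIT, 338 kb away, and PDGFRA, 780 kb away, which are related receptor tyrosine kinase genes. KIT rose from 24.3 and 20.4 CPM to 32.6 and 28.6 CPM (log2 fold change 0.45, SE 0.10, adjusted p = 0.00294). PDGFRA was at 362 and 359 CPM against 360 and 424 CPM and did not pass. On the other side of KDR, TMEM165 fell from 77.6 and 82.1 CPM to 54.0 and 47.3 CPM, by 0.66 on the log2 scale.

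CDH5 had the one neighbour past the threshold with a change of at least 1. BEAN1, 22.5 kb away, fell from 1.45 and 1.36 CPM to 0.0512 and 0.412 CPM (log2 fold change -2.51, SE 0.53, adjusted p = 0.00168). CDH11, a cadherin gene and the nearest tested gene on the other side, lies 1245 kb away. It rose from 94.2 and 87.6 CPM to 130 and 132 CPM (log2 fold change 0.53). The 4 neighbours of VEGFC were all called higher, by 0.17 to 0.55 against 2.47 for VEGFC itself, but each of these calls was lost in DESeq2 and without WT replicate 1. The 4 neighbours of NRP2 had log2 fold changes of at most 0.22 in size, and those of FLT1 of at most 0.38. No other row of the table overlapped any of the 10 genes.

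**Figure D4:**
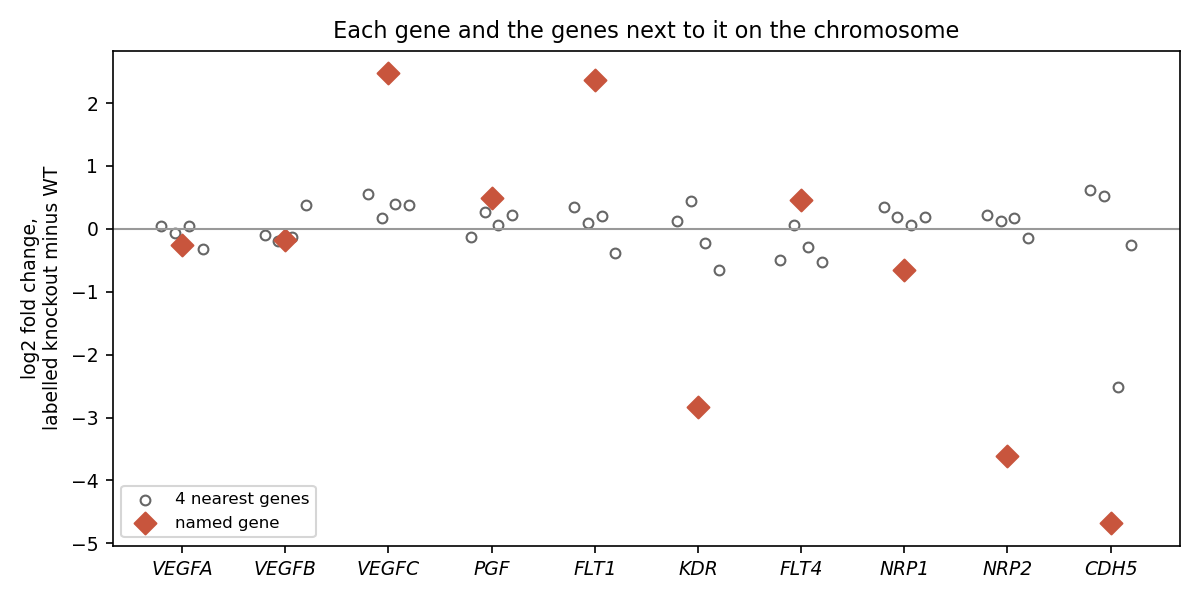
Log2 fold change of each of the 10 genes (diamonds) and of the 2 nearest tested genes on each side (open circles). NRP2, FLT1, VEGFC and KDR stand apart from their neighbours, and BEAN1, at -2.51, is the neighbour closest to CDH5 in change.

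Genes closest to VEGFC, CDH5 and VEGFA in level over the 4 libraries were found by the mean absolute difference in log2(CPM + 0.5). ZBTB16 (0.13), RFTN1 (0.14) and SORCS3 (0.16) were closest to VEGFC, the member with the largest rise. GUCA1A (0.15), SLC15A1 (0.16) and KCNK15 (0.21) were closest to CDH5, the one with the largest fall, and MMP24, MED30 and SLC16A13 (each 0.04) to VEGFA. With 4 libraries in 2 groups, this likeness is little more than the same level in each genotype.

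Lists of other genes of the pathway were described by their counts, beside the 44.2% of all genes that were called and a median log2 fold change of 0.00 over all genes. Among related growth factors and receptors outside the list, 5 of 8 tested fell and 1 rose (median -0.53). PDGFA, a platelet-derived growth factor, fell from 36.3 and 35.2 CPM to 17.1 and 15.0 CPM (adjusted p = 1.67e-07). KITLG, the ligand of KIT, fell from 59.9 and 59.1 CPM to 38.3 and 29.3 CPM, and PDGFC from 195 in both WT libraries to 128 and 112 CPM. The 1 that rose was KIT, and PDGFRA was also called higher without knockout replicate 1 (log2 fold change 0.24).

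Genes that cut, release or hold VEGF ligands fell more often than they rose, with 11 of 16 lower, 3 higher and a median of -0.48. PCSK5, a proprotein convertase that can cleave the VEGFC precursor, fell from 125 and 137 CPM to 7.84 and 8.11 CPM (log2 fold change -4.03, SE 0.08, adjusted p = 1.54e-13). ADAMTS2, a procollagen protease, fell from 116 and 125 CPM to 9.94 and 10.4 CPM, and PLAU, the urokinase gene, from 3.13 and 3.12 CPM to 0.615 and 0.458 CPM. FURIN, another convertase of the VEGFC precursor, fell from 197 and 203 CPM to 118 and 120 CPM. ADAMTS3, which makes the final cut of VEGFC, rose from 30.4 and 32.2 CPM to 39.0 and 41.1 CPM (adjusted p = 0.00147). Its cofactor gene CCBE1 was at 70.7 and 62.3 against 46.3 and 58.1 CPM (adjusted p = 0.0351), and did not pass once WT replicate 1 (0.15) or knockout replicate 1 (0.114) was left out or with the replicate block (0.0669). The others that rose were SDC2, a syndecan, and CTGF (CCN2), a matrix protein that binds VEGFA, whose call was lost without knockout replicate 1 (adjusted p = 0.0681).

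Semaphorins and plexins, the other partners of neuropilins, went both ways, with 5 of 14 higher and 3 lower (median 0.12). SEMA3D rose from 61.7 and 69.6 CPM to 124 and 129 CPM (adjusted p = 3.56e-08), and SEMA3C from 54.5 and 64.6 CPM to 95.0 and 95.7 CPM. SEMA3F, whose main receptor is NRP2, fell from 168 and 171 CPM to 105 CPM in both libraries labelled knockout (adjusted p = 8.02e-08). SEMA3A, whose main receptor is NRP1, was at 159 and 161 against 188 and 168 CPM, with an adjusted p of 0.0519, and was called higher in 4 of the 14 alternatives. L1CAM fell from 9.67 and 9.98 CPM to 5.22 and 6.83 CPM, and SEMA3B was lower too, a call lost without knockout replicate 1 (adjusted p = 0.078). PLXNA2 and PLXND1 rose, by 0.37 and 0.53 on the log2 scale. SEMA3E, at 0.336 and 0.227 against 1.08 and 0.55 CPM, passed with an adjusted p of 0.0389, but not in DESeq2 (0.22) or limma-voom (0.0562). That call was also lost without WT replicate 1 (log2 fold change 1.79) and without WT replicate 2 (1.24).

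Of 43 signalling genes downstream of the receptors, 15 fell, 9 rose and 19 did not pass, with a median of 0.04. The largest falls were those of NFATC2, a calcineurin target, from 10.7 and 11.1 CPM to 3.38 and 2.02 CPM and of PLCG2, from 9.95 and 11.9 CPM to 2.36 and 3.02 CPM. PLCG1, the phospholipase that KDR activates, was at 329 and 311 against 338 and 335 CPM and did not pass, nor did NOS3, the endothelial nitric oxide synthase, at 4.42 and 3.35 against 5.74 and 4.22 CPM.

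Hypoxia genes split as well, with 9 of 31 higher, 8 lower and a median of 0.02. EPAS1, which encodes the hypoxia-inducible factor HIF-2 alpha, fell from 661 and 770 CPM to 20.6 and 13.5 CPM (log2 fold change -5.40, SE 0.26, adjusted p = 0.00228). This was 42.0-fold lower, the largest change of the list. HIF1A was at 153 and 160.5 against 165 and 149 CPM and did not pass. Among targets of these factors, SLC2A1, a glucose transporter gene, fell from 742 and 765 CPM to 414 and 410 CPM and BHLHE40 from 8.05 and 10.5 CPM to 2.46 and 2.11 CPM, while LDHA rose from 119 and 112 CPM to 161 and 167 CPM. EGLN3, a prolyl hydroxylase gene, was at 1.12 and 0.68 against 1.84 and 1.97 CPM (adjusted p = 0.0144). It did not pass in DESeq2 (adjusted p = 0.139). The call was also lost when WT replicate 2 (log2 fold change 0.77), knockout replicate 1 (1.13) or knockout replicate 2 (1.03) was left out. VEGFA, in the same 4 libraries, had the log2 fold change of -0.25 given above.

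Other vascular ligands and receptors gave 7 of 21 higher and 5 lower (median 0.11), of which 3 were lower in DESeq2, without WT replicate 1 and without knockout replicate 2. HGF rose from 1.34 and 1.25 CPM to 5.02 and 6.23 CPM (adjusted p = 4.04e-06), and APLNR, the apelin receptor gene, from 0.783 and 0.68 CPM to 3.18 and 2.47 CPM. EDN1 was lower, at 1.01 and 0.68 against 0.205 and 0.183 CPM, a call lost in DESeq2 (adjusted p = 0.0789). It was also lost when WT replicate 1 (log2 fold change -1.785) or knockout replicate 2 (-2.005) was left out.

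Partners of CDH5 at adherens junctions fell in 8 of 16 cases and rose in 2 (median -0.21). HEG1, an endothelial junction protein gene, fell from 64.3 and 58.1 CPM to 18.03 and 16.1 CPM (log2 fold change -1.84), ARHGAP29 from 138 and 148 CPM to 64.4 and 52.3 CPM, and CTNNB1, the beta-catenin gene, from 1093 and 1100 CPM to 850 and 805.5 CPM. PTPRM rose from 13.1 and 11.4 CPM to 31.9 and 28.3 CPM. The other that rose, PTPN14, did not pass once WT replicate 1 (adjusted p = 0.118) or knockout replicate 1 (0.0585) was left out.

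**Figure D5:**
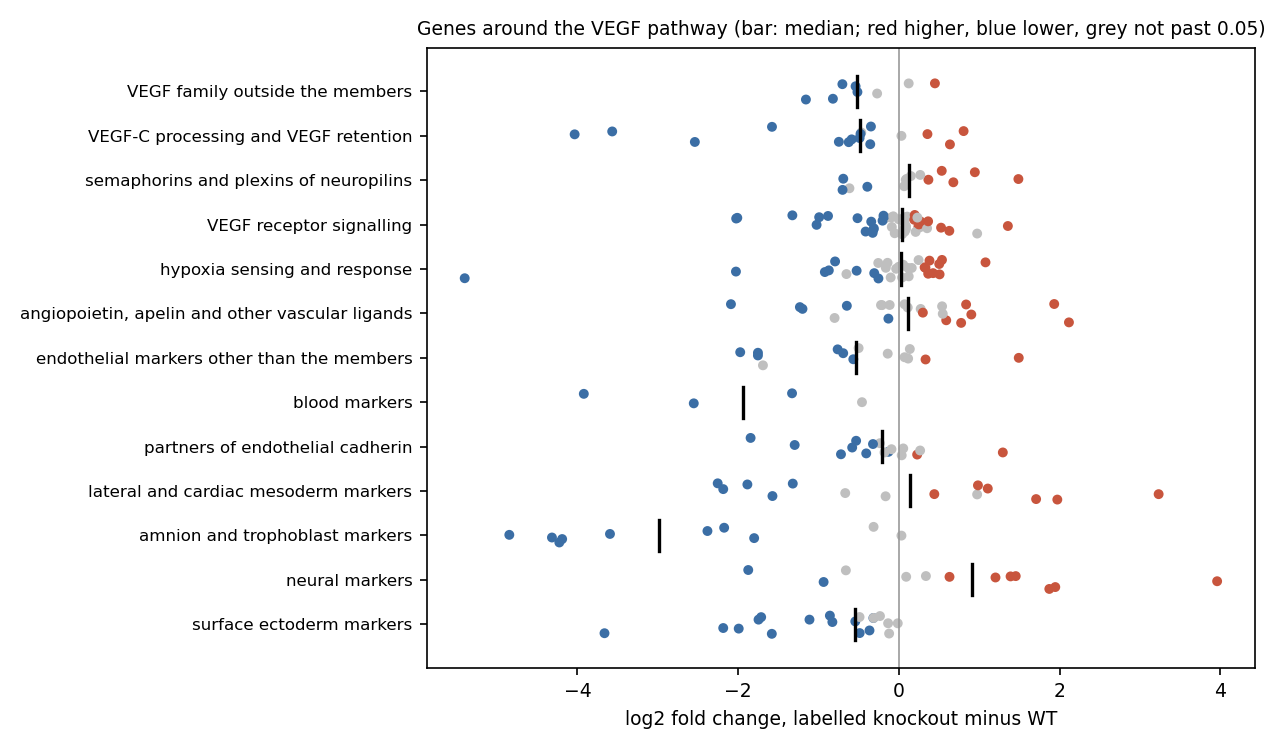
Log2 fold change of each tested gene in the 13 lists (points; red called higher, blue called lower, grey not called) with the median of each list (black bar). CGA, with 0 counts in both libraries labelled knockout, is drawn at its bound, and EPAS1 is the lowest point of the hypoxia list.

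Cell type markers were set beside KDR and CDH5, the members most used to mark endothelium. Of 10 defining endothelial markers, 8 were under 1 CPM in all 4 libraries, and PECAM1, ROBO4 and SOX18 were at or under 0.5 counts in every library. The summed level of the 10 was 23.2 and 19.1 CPM in WT against 19.0 and 15.4 CPM in the libraries labelled knockout, most of it from TEK, at 15.2 and 11.6 against 15.3 and 12.9 CPM. Without TEK the sums were 7.997 and 7.54 against 3.74 and 2.43 CPM, most of each from VWF. The rest went both ways, at counts too low to test. TIE1 had 1 and 2.5 counts in WT against 9.5 and 7.5 in the libraries labelled knockout. CLDN5 had 3.5 in both WT libraries against 7.5 and 5.5, and ERG had 16 and 5.5 against 2.5 and 3. Only 2 of the 10, TEK and VWF, had enough counts to test. TEK did not pass, and VWF fell from 6.82 and 6.80 CPM to 2.51 and 1.56 CPM (adjusted p = 1.75e-05). So KDR and CDH5 were measured at 11 to 17 CPM in WT cells in which most defining endothelial markers were near 0.

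In the longer endothelial list, 14 of 31 genes had enough counts to test, of which 6 fell and 2 rose (median -0.53). S1PR1, a sphingosine receptor gene, fell from 7.83 and 6.46 CPM to 1.89 and 1.74 CPM, and LYL1 from 3.02 and 2.04 CPM to 0.461 and 1.01 CPM. MMRN2 rose from 3.08 and 4.20 CPM to 9.73 and 10.7 CPM. The other that rose, STAB1, lost its call in DESeq2 (adjusted p = 0.1). It also lost it without any 1 of WT replicates 1 and 2 and knockout replicate 1 (log2 fold change 0.297, 0.362 and 0.222). Among 6 blood markers, PTPRC, SPI1 and GATA1 were under 1 CPM in all libraries, and the sum fell from 17.8 and 19.2 CPM to 2.66 and 2.84 CPM, most of it HBE1. In the longer blood list 3 of 4 tested fell, RUNX1 from 3.80 and 4.42 CPM to 0.154 and 0.367 CPM, HBE1 from 13.8 and 14.6 CPM to 2.51 and 2.34 CPM, and ITGA2B, whose adjusted p was 0.192 without WT replicate 2 and 0.088 without knockout replicate 2.

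Markers of amnion and trophoblast, where FLT1 and PGF are also known, were mostly lower in the libraries labelled knockout. Of 6 such markers 5 were found and 4 tested, all of them lower, with summed levels of 1474 and 1566 CPM in WT against 98.5 and 62.3 CPM in the libraries labelled knockout. Without GABRP, the most abundant of them, the sums were 348 and 359 against 20.2 and 15.3 CPM. In the longer list 8 of 10 tested fell and 0 rose (median -2.99), or 5 without WT replicate 2. VTCN1 fell from 344 and 353 CPM to 19.97 and 15.1 CPM. GABRP was at 1126 and 1207 against 78.3 and 47.0 CPM, with an adjusted p of 0.0879 and 0.124 without WT replicates 1 and 2. CGA had 0 counts in both libraries labelled knockout and was at least 28.8-fold lower, and with CGA at that bound the median was the same. The trophoblast factor gene GCM1 was under 1 CPM in all libraries.

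All 5 neural markers were called higher, as were 21.9% of all genes tested. Their sums were 128 and 129 CPM in WT against 330 and 291 CPM in the libraries labelled knockout. CDH2 made up most of these sums, and without it they were 17.7 and 16.5 against 65.5 and 42.9 CPM. Most of what was left came from SOX2, at 11.7 and 10.9 against 51.8 and 31.4 CPM. In the longer list 12 of 19 genes had enough counts to test, of which 7 rose and 2 fell (median 0.92). The sum of that list went the other way, from 2877 and 3130 CPM in WT to 1617 and 1524 CPM, with DLK1 its largest part in WT. SOX1 had 1 count in each WT library and 25 and 15 in those labelled knockout, SOX3 rose from 1.73 and 1.76 CPM to 7.48 and 6.05 CPM, and the 2 that fell were DLK1, from 1980 and 2239 CPM to 627 and 525 CPM, and NES. Markers of lateral mesoderm, the source of KDR-positive progenitors, summed to 384 and 407 CPM in WT against 122.5 and 124 CPM in the libraries labelled knockout, with TBXT (T in the table) at 0 counts in all 4. A single gene, HAND1, which is also in the surface ectoderm list, carried most of this difference, and without it the sums were 60.6 and 54.2 against 45.6 and 52.5 CPM. In the longer list of lateral and cardiac mesoderm genes, which summed to 664 and 673 against 528 and 569 CPM, 6 of 14 tested rose and 5 fell (median 0.14), among them FOXC2, from 1.90 and 1.59 CPM to 13.4 and 19.4 CPM, HAND1, from 323 and 353 CPM to 76.9 and 71.9 CPM, and TBX20, from 1.73 and 1.30 CPM to 0.154 and 0.458 CPM. Of 19 surface ectoderm genes 13 fell and 0 rose (median -0.54), MSX1 from 91.8 and 115 CPM to 7.94 and 8.34 CPM and TFAP2C, the gene in the sample titles, from 27.5 and 30.6 CPM to 8.91 and 5.77 CPM. The part of any of these cell types in the values of the 10 genes was not tested.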

How the data were processed

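The authors deposited 1 table of estimated counts per gene for 4 libraries, with no normalization. TopHat, HOMER, DESeq2 and the build hg38 are named, per the submitters' processing notes, without versions. The annotation and any use of strand were not stated in the sources at hand. All values were multiples of 0.5 and 37.0% were not whole, and they were rounded to whole numbers (ties to the even number). Of 22860 genes only 4.38% had a start that lay within 2000 bp of the GRCh38 one, and none of the 10 described did, so table coordinates are printed as hg19, the build before it, with no hg19 annotation used here to check them.

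Genes were filtered with filterByExpr, scaled with TMM factors and tested with edgeR 4.0.16 (glmQLFit, robust, and glmQLFTest) on genotype across all 15643 genes, in R 4.3.3, with Benjamini-Hochberg adjustment at 0.05. CPM use TMM-adjusted library sizes, and the SE is the log2 fold change over the square root of F. The 14 alternatives used other scaling, DESeq2 1.42.0, limma-voom (limma 3.58.1), other filters, fractions dropped, no robust estimation, a replicate block, or 1 library fewer. The script was tested on simulated data. Lengths are from GENCODE 29, and upstream sequences from RefSeq (GRCh38.p14).

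The 10 genes and the 13 lists (280 symbols, 279 found, 5 by an older symbol) were chosen with earlier results of these data known. The rule for named genes took, of each list, up to 3 genes past the threshold with the largest change, or the 2 with the highest CPM where fewer than 2 passed, neighbours past the threshold with a change of at least 1, and the 3 genes closest to 3 members. Any gene named beyond this rule was picked with its values in view, and 1 gene that the rule took is not reported here. Counting error and the number of libraries limit the precision.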

Additional observations from a re-analysis of the deposited data

How the results depend on the processing

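Over 14 alternatives to the fit, VEGFC, FLT1, KDR, NRP1, NRP2 and CDH5 kept their direction and stayed past the threshold, and VEGFA stayed short of it. The number of the 10 genes called higher went from 4 to 2 with DESeq2, where PGF and FLT4 did not pass, and ran from 2 to 4 with 1 library left out, the lowest without WT replicate 1. The number called lower was 4, or 5 without knockout replicate 2, where VEGFB passed. The share of FLT1 among receptors was 5.15% in WT against 38.0% in the libraries labelled knockout with the union of exons as length, a choice added after seeing the data. All genes called ran from 2386 to 3683 higher and 2543 to 3652 lower. With the replicate block the counts were 3050 higher and 3154 lower over all genes and 4 and 4 among the 10. Libraries with the same number did not deviate together (correlation -0.05 over genes, which are not independent replicates). That value rests on 1 difference per group, so whether such libraries were handled as pairs is not known. The scaling alternatives moved the median log2 fold change by at most 0.02. With 2 libraries a group the spread is estimated with 2 residual degrees of freedom and is shared across genes, and fits that leave out 1 library assume that the lone library varies like the other group.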
